A study of Homo sapiens with 6 samples.

Results

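Genes of the peroxisome were followed in PC3, a long-established human cell line from prostate cancer, in which, per the series' design text, doxycycline serves to induce the coactivator PGC1A. The set holds 33 genes chosen by name: 12 PEX genes, which build the organelle, and 21 genes for metabolic enzymes, transporters and membrane proteins of peroxisomal lipid metabolism. A gene entered when a probe named for it was detected, with a detection p-value under 0.01, on at least 3 of the 6 arrays. By that rule 27 of the 33 genes were measured, 10 PEX genes and 17 metabolic ones, out of 9841 named genes tested on the arrays. No named probe was found in the annotation used here for PEX3, PEX13, SCP2, ABCD4, PXMP4 and MLYCD, which are not analysed here. The 27 genes had 37 named probes and all 37 passed. The least often detected was the second probe of CAT, on 5 of 6 arrays, and the other 36 were detected on all 6.

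P_DOX consisted of 3 samples of PC3 cells titled PC3_PGC1A and kept in doxycycline for 2 passages, and M_DOX of 3 samples under the same cell title without doxycycline. Samples in both groups therefore carry the PGC1A name, and doxycycline is the labelled difference between them. The promoter of the construct and whether the line is a clone are not stated in those labels. Doxycycline-treated cells lacking PGC1A were not analysed here, so doxycycline and induced PGC1A cannot be told apart. Nothing in the labels says that the 3 samples of a group came from separate cultures, so the p-values cover the spread among these 6 samples alone, and that spread may be technical.

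Peroxisomes are small organelles that shorten very long and branched fatty acids, begin the synthesis of ether lipids and break down the hydrogen peroxide that their oxidases make. Their matrix enzymes are made in the cytosol and imported folded, through receptors that dock at the membrane, release their cargo, are ubiquitinated and are pulled out again. Peroxisomal lipid enzymes are textbook targets of the PPAR receptors in rodent liver, and PGC1A is a coactivator of those receptors and of the ERR receptors.

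Values are log2 signal after background correction and quantile normalization, a change is the P_DOX mean minus the M_DOX mean on that scale, and its standard error is written SE. Each gene is read from its brightest tested probe. The arrays detected from 15437 to 16012 probes in P_DOX and from 15029 to 15841 in M_DOX, and the median raw intensity ran from 60.03 to 61.59 in P_DOX and from 65.58 to 68.04 in M_DOX. P_DOX replicate 2 stood apart on the first principal component, with a score of -20.14, while the scores of the remaining arrays ran from -2.89 to 11.15. The epithelial markers EPCAM, KRT8, KRT19 and CDH1 were detected on all 6 arrays and KRT18 did not pass the detection rule. None of the 5 prostate luminal markers had a named probe. The rule was also passed by 3 of 5 fibroblast, 2 of 5 immune and 1 of 4 endothelial markers, and no marker of any list passed the test between groups (lowest limma adjusted p = 0.19). With the replicate block the B cell marker CD79A was called, at 5.25 in P_DOX and 5.68 in M_DOX (adjusted p = 0.0477). That signal is low, beside a median of 8.13 over all genes in each group. With the block 1.8% of all genes were called.

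The PPARGC1A probe, for the gene of PGC1A itself, read 5.26, 5.73 and 5.09 in P_DOX, against 4.94, 5.60 and 5.44 in M_DOX. The groups overlapped close to background, and the change was 0.04 (limma adjusted p = 0.951). Whether this probe lies within the part of the transcript that the construct carries was not analysed here, and it is no check of the labels. ESRRA encodes ERR-alpha, a nuclear receptor coactivated by PGC1A, and was at 8.52 ± 0.08 in P_DOX and 8.02 ± 0.05 in M_DOX (SD, n = 3 each). Its change of 0.50 missed the threshold of 0.05 (limma adjusted p = 0.0502), and it was called with the replicate number as a block (adjusted p = 0.037). It was called in 7 of the 15 alternative settings tried, and in none of the 6 that leave out an array (adjusted p from 0.0926 to 0.205).

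The comparison of P_DOX with M_DOX asks whether the machinery and the enzymes of the peroxisome moved with doxycycline, given to induce PGC1A. None of the 27 genes passed the test, either as a rise or as a fall (limma, Benjamini-Hochberg adjusted p under 0.05 over all 9841 genes). Among all genes tested 0.437% were called higher and 0.102% lower, 0.539% in all, so few or no calls among 27 genes is also what the share over all genes gives. At an unadjusted p under 0.05 there were 3 genes, ACAA1, ECI2 and PHYH, all higher in P_DOX and all metabolic. That is 11.1% of the 27 against 8.08% of all genes higher, 6.61% lower and 14.7% in all. With the replicate block 1.35% of all genes were called higher and 0.447% lower, 1.8% in all, and again none of the 27. In a bulk sample fewer cells expressing a gene and less of its RNA per cell cannot be told apart.

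The members' changes ran from -0.22 to 0.45, with a median of 0.05 and 15 above and 12 below 0, where the median over all genes was -0.03 with 43.4% above 0. In 7 of the 27 the arrays of the groups did not overlap, 5 higher and 2 lower in P_DOX. That is 25.9% of the members, beside 10.2% of all genes without overlap upward, 11.3% downward and 21.5% in all. Standard errors ran from 0.073 to 0.174. The 95% intervals of the changes reached at most to 0.70 upward, for ACAA1, and to -0.62 downward, for PXMP2, which is 1.62-fold and 0.649-fold.

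**Figure D1:**
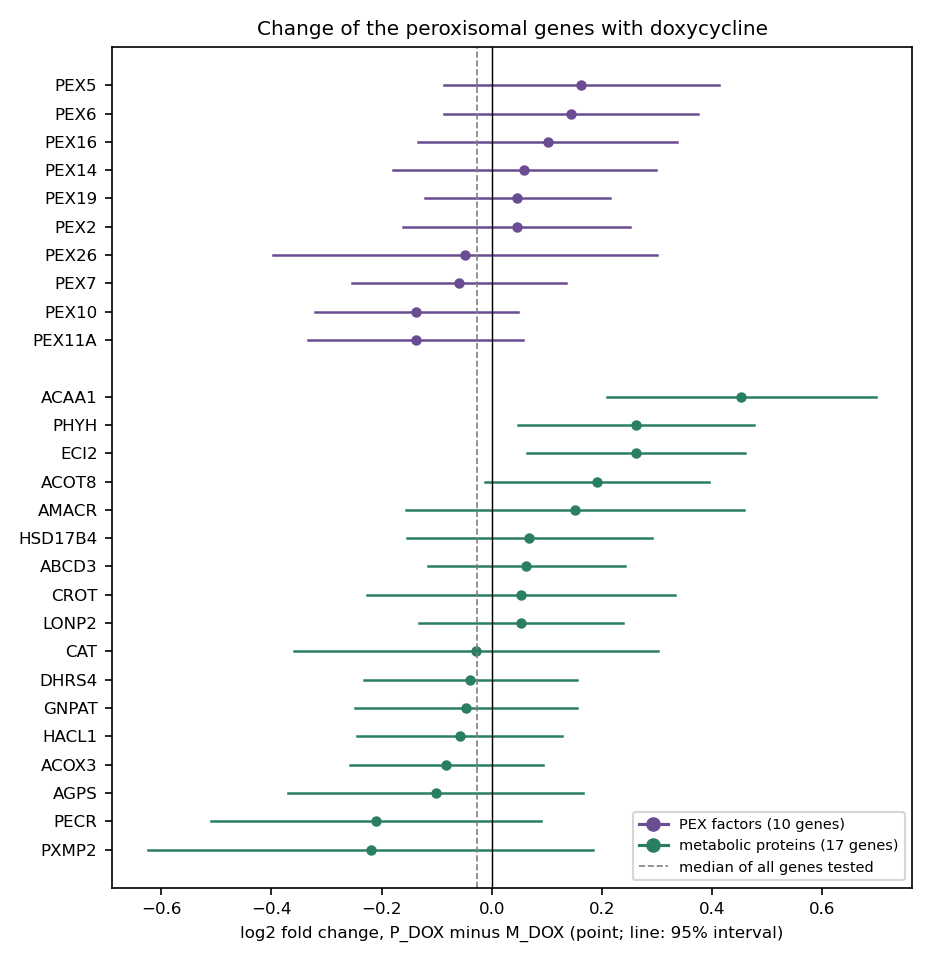
Log2 fold change of each measured peroxisomal gene, P_DOX minus M_DOX (point) with its 95% interval from limma (line), sorted within the 10 PEX genes and the 17 metabolic genes; the dashed line is the median of all 9841 genes, -0.03. The intervals of ACAA1, ECI2 and PHYH lie above 0 and every other interval crosses it.

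The PEX genes stayed within a narrow band. Their changes lay between -0.14 and 0.16, with a median of 0.05 and 6 of 10 above 0, and none had an unadjusted p under 0.05. Across the 10 genes the 95% intervals reached 0.41 at the highest, for PEX5, and -0.40 at the lowest, for PEX26, so larger changes than 1.33-fold up or 0.759-fold down lay outside them. These intervals are not adjusted for the number of genes.

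Among the factors that insert proteins into the peroxisomal membrane, PEX19, the cytosolic chaperone of membrane proteins, read 9.41, 9.40 and 9.42 in P_DOX, against 9.38, 9.33 and 9.37 in M_DOX. All 3 P_DOX arrays lay above all 3 M_DOX arrays, by a small margin. The change was 0.05 (SE 0.0727, limma adjusted p = 0.805), and PEX19 had the smallest SE of the 27. PEX16, a membrane protein of the same pathway, was at 0.10 on its brighter probe (adjusted p = 0.685) and at 0.00 on the other.

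The import receptors did not pass the test. PEX5, which binds the signal at the C terminus of most matrix enzymes, had the largest PEX change upward. It read 10.25, 10.38 and 10.32 in P_DOX, against 9.97, 10.17 and 10.34 in M_DOX. M_DOX replicate 3 lay within the P_DOX range, and the change was 0.16 (SE 0.108, limma adjusted p = 0.528). Leaving out M_DOX replicate 1 brought it to 0.07 and leaving out M_DOX replicate 3 to 0.25. PEX7, the receptor for the signal at the N terminus, which ACAA1, PHYH and AGPS are known to carry, was at -0.06 (SE 0.0838, adjusted p = 0.779). At the docking site PEX14 was at 0.06 (adjusted p = 0.827).

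In the ubiquitin ligase that marks receptors for export, PEX10 read 5.86, 5.84 and 5.98 in P_DOX, against 6.01, 6.02 and 6.06 in M_DOX. All 3 P_DOX arrays lay below M_DOX, and the change was -0.14 (SE 0.0795, limma adjusted p = 0.476). Over the alternative settings it ran from -0.18 to -0.08, the latter without background correction or on the authors' deposited table. The partner of PEX10, PEX2, was at 0.05 (adjusted p = 0.849). The export motor PEX6, an ATPase, read 7.11, 7.41 and 7.29 in P_DOX, against 7.07, 7.11 and 7.21 in M_DOX. The groups overlapped, and the change of 0.14 did not pass (SE 0.0996, adjusted p = 0.547). PEX26, the membrane anchor of PEX6, was at -0.05 (adjusted p = 0.905) with the largest SE of the PEX genes, 0.151. PEX11A, known for the growth and division of peroxisomes when they proliferate, read 7.68, 7.62 and 7.59 in P_DOX, against 7.69, 7.73 and 7.88 in M_DOX. The P_DOX arrays all lay lower, replicate 1 by the least, and the change was -0.14 (SE 0.0843, limma adjusted p = 0.496).

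**Figure D2:**
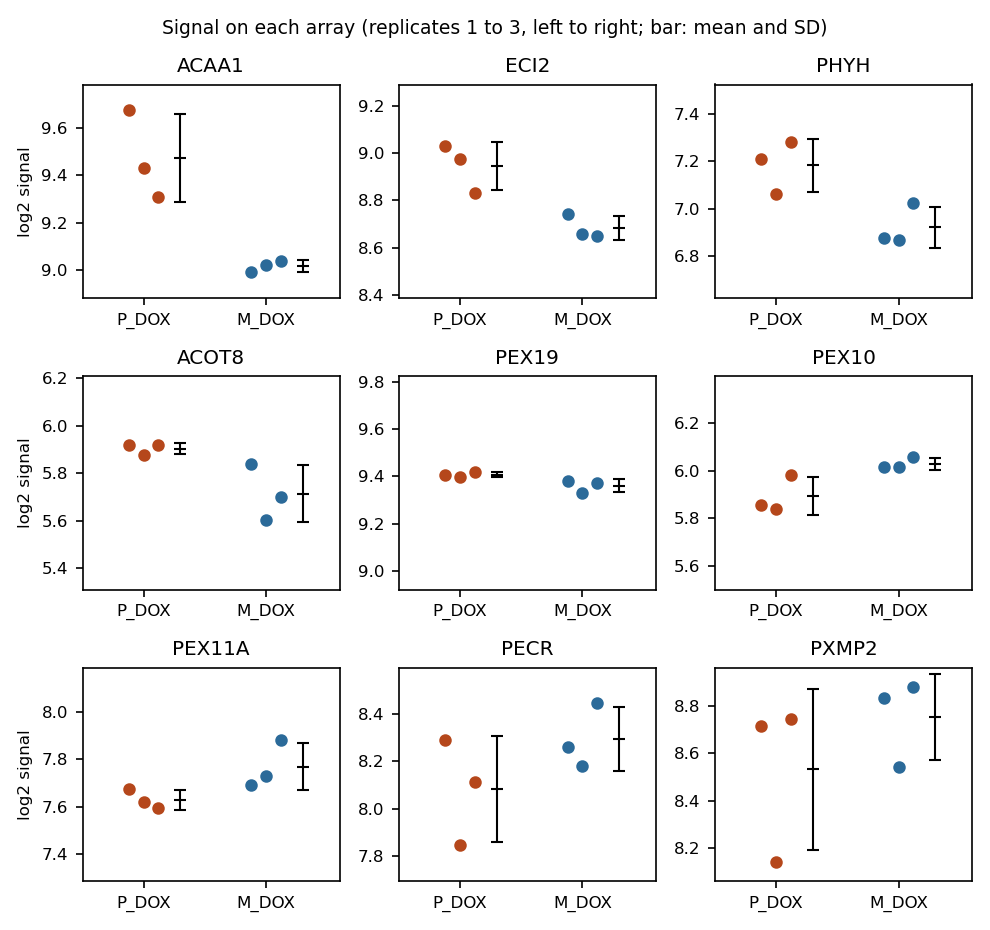
Log2 signal on each array for 9 peroxisomal genes, P_DOX left and M_DOX right, replicates 1 to 3 from left to right within a group, with mean and SD beside them; every panel spans 0.9 log2 units. ACAA1, ECI2, PHYH, ACOT8 and PEX19 lie higher in P_DOX without overlap, PEX10 and PEX11A lower without overlap, and PECR and PXMP2 overlap.

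The metabolic genes spread more widely than the PEX genes. Metabolic changes ran from -0.22 to 0.45, with a median of 0.05 and 9 of 17 above 0. The medians of the metabolic and PEX genes thus differed by less than 0.01, and the difference between the groups of genes was not tested. The 3 genes with an unadjusted p under 0.05 were all enzymes of fatty acid breakdown. Of the 17 metabolic genes tested, 6 were listed under beta-oxidation and 2 under alpha-oxidation.

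In beta-oxidation, ACAA1, the thiolase that cuts off the shortened chain in the last step, had the largest change of all 27 genes. It read 9.67, 9.43 and 9.31 in P_DOX, against 8.99, 9.02 and 9.04 in M_DOX. The groups were clearly apart, with M_DOX tightly spaced and P_DOX replicate 1 highest. The change was 0.45, or 1.37-fold (SE 0.105, 95% interval 0.21 to 0.70, limma adjusted p = 0.125), which places ACAA1 at the 98.1th percentile of all genes. It did not pass with the replicate block either (adjusted p = 0.0748).

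ECI2, the isomerase that moves double bonds so that unsaturated chains can be shortened, read 9.03, 8.98 and 8.83 in P_DOX, against 8.74, 8.66 and 8.65 in M_DOX. No P_DOX array fell within the M_DOX range. The change was 0.26, or 1.2-fold (SE 0.0856, limma adjusted p = 0.238), and the second probe was at 0.22, also without overlap.

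PHYH, the hydroxylase that opens the alpha-oxidation of the branched fatty acid phytanic acid, read 7.21, 7.06 and 7.28 in P_DOX, against 6.88, 6.87 and 7.02 in M_DOX. P_DOX replicate 2 and M_DOX replicate 3 came close without overlapping. The change was 0.26 (SE 0.0925, limma adjusted p = 0.266). Of its other probes the first was at 0.36 without overlap and the other, the dimmest, at 0.07 with overlap. HACL1, the lyase later in alpha-oxidation, was at -0.06 (adjusted p = 0.774).

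The start sites of ECI2 and PHYH are shown because these genes had 2 of the 3 changes with the smallest p-values. ACAA1 had the smallest and is not shown. Each window runs from 250 bases before to 50 after the RefSeq start of the gene on GRCh38.p14, 5′ to 3′ on the strand of the gene. That of ECI2, on the minus strand at chr6:4135526-4135825, is 1 of 2 listed for the gene, and that of PHYH, on the minus strand, is chr10:13299714-13300013. Capitals would mark a match on either strand to AAGGTCA, the half-site bound by ERR receptors, to AGGTCA repeated after 1 spacer base of any kind, the direct repeat bound by PPAR with RXR, or to GCGCA followed by any base and GCGC, the core of the NRF1 site. The ERR half-site contains AGGTCA, so it can overlap the direct repeat. Neither window holds a match, and their G and C content is 79% and 76%.
ECI2: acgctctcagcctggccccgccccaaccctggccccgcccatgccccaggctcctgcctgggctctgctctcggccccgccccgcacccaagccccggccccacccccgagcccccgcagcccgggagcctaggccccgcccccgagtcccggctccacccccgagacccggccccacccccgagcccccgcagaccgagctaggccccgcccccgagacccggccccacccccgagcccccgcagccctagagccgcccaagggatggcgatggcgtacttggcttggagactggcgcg
PHYH: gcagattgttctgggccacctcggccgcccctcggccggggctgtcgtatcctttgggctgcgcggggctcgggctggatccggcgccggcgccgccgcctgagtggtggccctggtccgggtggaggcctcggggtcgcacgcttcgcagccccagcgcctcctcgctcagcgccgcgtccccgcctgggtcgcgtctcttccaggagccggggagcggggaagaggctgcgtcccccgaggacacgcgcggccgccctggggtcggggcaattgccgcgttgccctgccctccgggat

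The other genes listed under beta-oxidation did not pass the test. AMACR, the racemase that prepares branched chains and is a known marker of prostate cancer, read 7.84, 7.32 and 7.65 in P_DOX, against 7.39, 7.45 and 7.51 in M_DOX. P_DOX replicate 2 was the lowest of all 6 arrays and the groups overlapped, with a change of 0.15 (SE 0.133, limma adjusted p = 0.64). Without that array, which stands apart, the change was 0.29 (adjusted p = 0.231), and without P_DOX replicate 1 it was 0.03 (adjusted p = 0.923). The other probes of AMACR were at 0.23 and 0.08, both with overlap. HSD17B4, a bifunctional protein for the middle steps, was at 0.07 (adjusted p = 0.782). EHHADH, another bifunctional protein, belongs to the further peroxisomal genes treated below and not to this list. It was at 0.38, higher in P_DOX without overlap, and did not pass the test either (adjusted p = 0.201). ACOX3, an oxidase of branched chains for the first step, was at -0.08 (adjusted p = 0.659). PECR, an enoyl-CoA reductase, was put in this list by name and is not an enzyme of chain shortening. It read 8.29, 7.85 and 8.11 in P_DOX, against 8.26, 8.18 and 8.44 in M_DOX. The groups overlapped, P_DOX replicate 2 lay lowest, and the change was -0.21 (SE 0.129, adjusted p = 0.498), or -0.09 without that array.

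Of the genes that take shortened chains out of the peroxisome, ACOT8, a thioesterase, read 5.92, 5.88 and 5.92 in P_DOX, against 5.84, 5.60 and 5.70 in M_DOX. The P_DOX arrays were higher without overlap, and the change was 0.19 (SE 0.0878, limma adjusted p = 0.372). Over the alternative settings it ran from 0.11, without background correction or on the authors' deposited table, to 0.25. CROT, which hands medium chains to carnitine, was at 0.05 (adjusted p = 0.87). ABCD3, a transporter that brings fatty acids in, was at 0.06 (adjusted p = 0.743). PXMP2, a channel of the membrane, had the lowest change of the 27. It read 8.71, 8.14 and 8.74 in P_DOX, against 8.83, 8.54 and 8.88 in M_DOX. Replicate 2 was the lowest array in each group. The change was -0.22 (SE 0.174, limma adjusted p = 0.596) and -0.02 without P_DOX replicate 2 (adjusted p = 0.944). Its second probe was at -0.23.

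Catalase, CAT, which destroys hydrogen peroxide, was at 11.08 ± 0.17 in P_DOX and 11.11 ± 0.25 in M_DOX (SD, n = 3 each), with a change of -0.03 (95% interval -0.36 to 0.30, limma adjusted p = 0.942). Its arrays followed the replicate number more than the group: replicate 1 was the lowest and replicate 2 the highest in both P_DOX and M_DOX. The reductase DHRS4 was at -0.04 (adjusted p = 0.862). It has close paralogs, and whether its probes also read them was not analysed here. LONP2, a protease of the matrix, was at 0.05 on its brighter probe and -0.08 on the other, and was the 1 gene of the 8 with several tested probes whose probes differed in sign.

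In ether lipid synthesis GNPAT, the acyltransferase of the first step, was at 10.36 ± 0.10 in P_DOX and 10.41 ± 0.06 in M_DOX (SD, n = 3 each), a change of -0.05 (limma adjusted p = 0.835). AGPS, which puts in the ether bond, was at 9.37 ± 0.20 in P_DOX and 9.47 ± 0.09 in M_DOX (SD, n = 3 each), a change of -0.10 (adjusted p = 0.723) or 0.01 without P_DOX replicate 2. The start sites of GNPAT and AGPS each hold a match to a motif searched and are shown here. Those of PXMP4 and ABCD3 also hold a match and are not shown. RefSeq windows were found for 30 of the 33 genes, 38 windows in all. The half-site AAGGTCA was in 2 of the 38, those of AGPS and PXMP4, and in 3.92% of all 35116 windows. The direct repeat was in none of the 38 and in 0.0228% of all, and the NRF1 core in 2, those of ABCD3 and GNPAT, and in 5.78% of all. A match is a description of these letters and not a bound site. Capitals mark the match, on the opposite strand in AGPS, whose window on the plus strand is chr2:177392523-177392822. The match in GNPAT reads the same on both strands, and its window, also on the plus strand, is chr1:231240962-231241261.
AGPS: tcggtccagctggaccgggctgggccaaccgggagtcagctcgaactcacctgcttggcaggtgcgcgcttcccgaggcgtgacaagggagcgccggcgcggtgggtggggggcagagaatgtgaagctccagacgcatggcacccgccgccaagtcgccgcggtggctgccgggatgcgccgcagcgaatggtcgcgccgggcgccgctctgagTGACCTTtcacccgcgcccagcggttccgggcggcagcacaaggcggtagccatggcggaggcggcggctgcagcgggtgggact
GNPAT: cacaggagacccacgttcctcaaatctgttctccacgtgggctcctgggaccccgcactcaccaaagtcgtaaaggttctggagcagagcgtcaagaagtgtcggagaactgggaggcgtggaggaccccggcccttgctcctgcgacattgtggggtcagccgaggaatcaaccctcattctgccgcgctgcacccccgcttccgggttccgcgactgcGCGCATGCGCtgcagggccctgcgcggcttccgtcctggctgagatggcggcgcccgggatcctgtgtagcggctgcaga

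Samples that share a replicate number deviated from their group means together, so the 3 differences between P_DOX and M_DOX of the same number can be read side by side. ACAA1 was higher in P_DOX by 0.68, 0.41 and 0.27 in replicates 1, 2 and 3, ECI2 by 0.29, 0.32 and 0.18, and PHYH by 0.33, 0.19 and 0.26. PEX6 was higher in all 3 pairs as well, by 0.04, 0.31 and 0.08, and PXMP2 was lower in all 3, at -0.12, -0.40 and -0.14. Of the 27 genes 6 were higher and 4 lower in all 3 pairs, which is 22.2% and 14.8%, where 20% of all genes were higher and 27% lower in all 3. By gene group this was 2 higher and 2 lower of the 10 PEX genes, and 4 higher and 2 lower of the 17 metabolic ones.

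**Figure D3:**
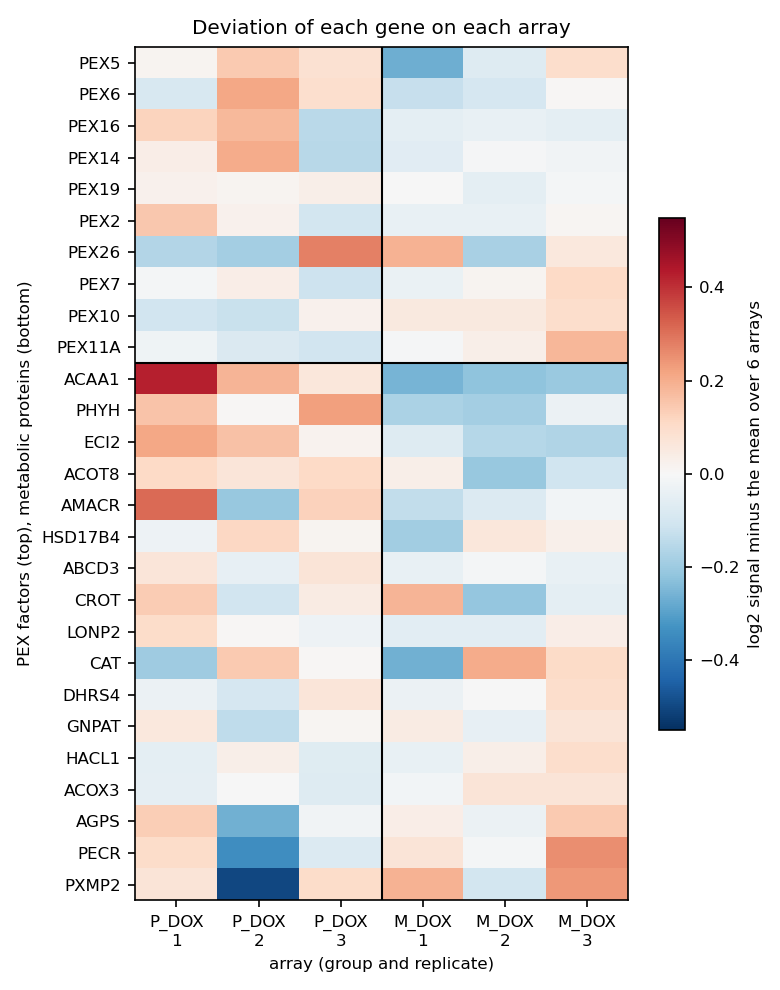
Log2 signal of each peroxisomal gene on each array minus its mean over the 6 arrays, P_DOX left and M_DOX right, PEX genes above the line and metabolic genes below it, sorted by change. ACAA1 on P_DOX replicate 1 is the highest at 0.43 and PXMP2 on P_DOX replicate 2 the lowest at -0.50.

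Further genes of the peroxisome were taken from a list of 52, of which 32 were tested. In this list 1 gene rose and none fell, beside 0.437% and 0.102% of all genes. The median change was 0.07, with 22 of 32 above 0, where 43.4% of all genes lay above 0. It was 0.205 for the 7 tested genes of other PEX factors and division, with 5 above 0. For the 25 other enzymes and carriers tested it was 0.06, with 17 above 0. Among those 7 genes 3 had an unadjusted p under 0.05 (limma), 42.9% beside 14.7% of all genes. These were TMEM135 (0.33, adjusted p = 0.267), MFF (0.26, adjusted p = 0.233) and ATAD1 (0.25, adjusted p = 0.296), and none passed the test. The gene of the list that rose was GSTK1, a glutathione transferase of peroxisomes and mitochondria. It read 11.59, 11.70 and 11.56 in P_DOX, against 11.03, 11.15 and 11.12 in M_DOX. The groups were far apart, and the change was 0.52 (SE 0.0816, limma adjusted p = 0.0462), which was lost without a detection filter (adjusted p = 0.0603) and when any 1 of the 6 arrays was left out (adjusted p from 0.0873 to 0.185). The largest change of the list, in ACSL4, which activates polyunsaturated fatty acids, did not pass (0.66, adjusted p = 0.0907) and was 0.31 for the mean of its 2 tested probes (adjusted p = 0.296). The acyl-CoA dehydrogenase ACAD11 was at 0.48 (adjusted p = 0.125). The lowest were ACOX2, the oxidase of bile acid intermediates (-0.40, adjusted p = 0.125), the fatty acid transporter SLC27A2 (-0.33, adjusted p = 0.291) and PTGR3 (-0.12, adjusted p = 0.549). With the replicate block, where 1.8% of all genes were called, 2 genes passed, GSTK1 (adjusted p = 0.037) and the epoxide hydrolase EPHX2 (0.44, adjusted p = 0.0456), the second named after its value was seen.

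Mitochondria shorten fatty acids by parallel steps with other enzymes. Of 18 listed genes of mitochondrial fatty acid oxidation 17 were tested, and all 17 lay above 0, where 43.4% of all genes did. The median change was 0.05 for the metabolic genes of the peroxisome, against 0.21 for this list. There 2 rose, beside 0.437% of all genes: DECR1, a dienoyl-CoA reductase (0.79, limma adjusted p = 0.0312), and ETFDH, the link from flavin dehydrogenases to the respiratory chain (0.55, adjusted p = 0.0396). Both calls were lost when any 1 of the 6 arrays was left out (adjusted p from 0.0636 to 0.143 for DECR1 and from 0.0636 to 0.164 for ETFDH). ACSL1 was at 0.71 (adjusted p = 0.19), at 0.43 without background correction or on the authors' deposited table, and between 0.50 and 0.94 with an array left out. For the isomerases, ECI2, which is found in peroxisomes and mitochondria, was at 0.26 and mitochondrial ECI1 at 0.37 (adjusted p = 0.114). For the thiolases, peroxisomal ACAA1 was at 0.45. Of the mitochondrial list HADHB was at 0.46, higher in P_DOX without overlap (adjusted p = 0.106), and ACAA2 at 0.18 (adjusted p = 0.573). ACAA2 was at 0.05 without P_DOX replicate 1 and at 0.26 without P_DOX replicate 3. For the dienoyl-CoA reductases, peroxisomal DECR2 was at -0.06 (adjusted p = 0.786) and mitochondrial DECR1 at 0.79. The differences between the lists and between these genes were not tested, and all of these values come from the same 6 arrays.

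**Figure D4:**
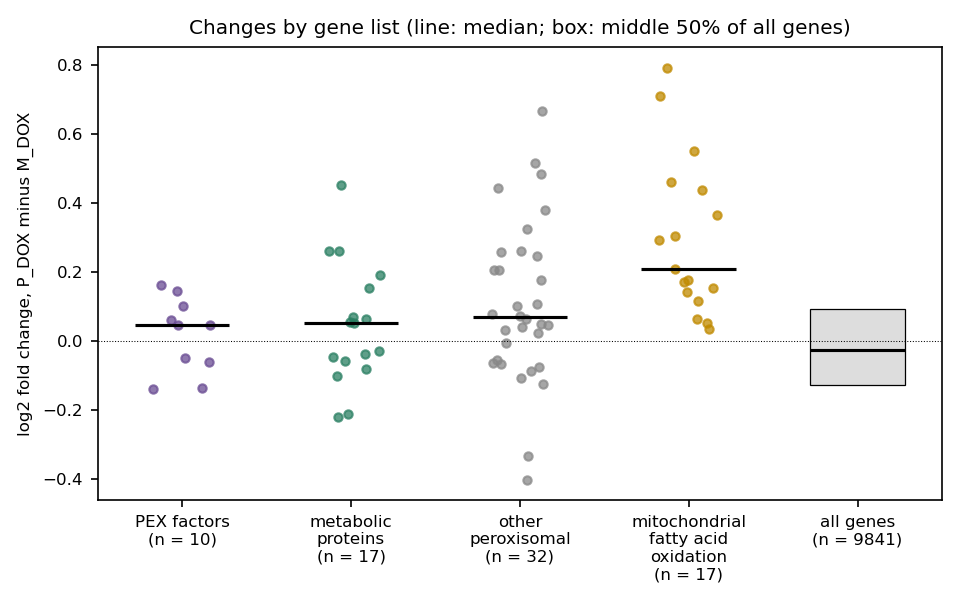
Log2 fold change, P_DOX minus M_DOX, of each tested gene (points) with the median of each list (line): 10 PEX genes at 0.05, 17 metabolic genes at 0.05, 32 other peroxisomal genes at 0.07 and 17 genes of mitochondrial fatty acid oxidation at 0.21. The box holds the middle 50% of all 9841 genes, from -0.13 to 0.09, and horizontal jitter has no meaning.

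Of the nuclear receptors that act on peroxisomal genes, PPARG was at 11.46 ± 0.05 in P_DOX and 11.65 ± 0.05 in M_DOX (SD, n = 3 each), lower without overlap, a change of -0.19 (limma adjusted p = 0.314) on the brighter of 2 tested probes and of -0.03 for their mean (adjusted p = 0.905). RXRA, the obligate partner of the PPAR receptors, was at -0.27 (adjusted p = 0.237) and RXRB at -0.23 (adjusted p = 0.263), also lower without overlap. PPARD was at -0.03 (adjusted p = 0.927) and the coactivator PPARGC1B at 0.20 (adjusted p = 0.579). PPARA, the receptor of the rodent response, had no named probe and is not analysed here.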

How the data were processed

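Total RNA was measured on Illumina bead arrays, with an array for each sample. The authors deposited linear intensity values for 47231 probes and a detection p-value for every probe and array. The authors' processed table holds log2 values of 17925 probes. Of tools, lumi is named by the submitters' processing notes, with no version. The scanner software is not given in the sources used here.

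Intensities were background-corrected with normexp from the detection p-values (offset 16), put on a common scale by quantiles and log2-transformed (limma 3.58.1 in R 4.3.3). Probes were named through the platform annotation, with 13977 naming 1 gene, 4 several and 3944 of the processed probes unlisted, and symbols were updated through 13970 matched Entrez numbers (GRCh38.p14). A detection p under 0.01 on 3 of 6 arrays left 15542 probes. The probe with the highest mean stood for a gene. Groups were compared over 9841 genes by limma (lmFit, eBayes; two-sided) with Benjamini-Hochberg adjustment. The fit was tested on simulated data. The number of arrays, 3 in each group, limits the precision. Members and lists were chosen with earlier results of these data known.

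Values on each array are given for genes without overlap between groups and for the 3 largest changes in each direction among the members, and PEX5, PEX6 and AMACR were added after their values were seen. Of other lists, called genes and the 3 largest changes in each direction are named. EHHADH, MFF, TMEM135 and ATAD1 were also named after their values were seen. Genes set beside a peroxisomal counterpart were picked with their values in view.

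Both groups have replicates numbered 1 to 3 in their titles. Deviations from the group means correlated at 0.454, 0.523 and 0.299 between samples with the same number and between -0.425 and -0.0656 otherwise. The deviations of a gene cancel out within a group, so the negative values follow in part from the positive ones. They are no separate sign of pairing. The numbers were taken to pair the samples, from the data and not from a label.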

Additional observations from a re-analysis of the deposited data

How the results depend on the processing

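None of the 27 peroxisomal genes passed the threshold under any of the 15 alternatives, and the lowest adjusted p was 0.0733, for ACAA1 with a variance trend. The direction of 16 of the 27 was the same in all 15. The median of the metabolic genes was -0.0143 for the mean of a gene's tested probes, and from -0.0108 to 0.0425 without single arrays. The PEX median stayed above 0 except with array weights (-0.0184) and ran from 0.0331 to 0.0743 without single arrays. All of these lie close to 0, and the cause of the shifts was not tested. Among all genes tested 53 were called, 81 without background correction, 81 on the authors' deposited log2 table, 30 without a detection filter, 100 with a variance trend, 207 with array weights and from 1 to 9 without single arrays. With the replicate block 177 were called. Beyond the calls given for ESRRA, GSTK1 and EPHX2, the block added HADHB (0.46, adjusted p = 0.0394) among the genes named. Array weights called HADHB, ESRRA and ACSL4 (0.75, adjusted p = 0.0237). ESRRA was also called without background correction, on the deposited table, with probes detected on all 6 arrays, for the mean of probes and with a variance trend (adjusted p from 0.025 to 0.0465). ETFDH was lost without a detection filter (adjusted p = 0.0524). The members' SEs, from 0.0727 to 0.174, set the size of change that 3 arrays in each group could show.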
